A study of Bos taurus with 15 samples.

Results

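The cytosolic ribosomal protein genes encode the proteins of the large (RPL) and small (RPS) subunits of the ribosome. They were followed in bovine testis through 76 array probes of 73 genes, out of 21475 probes and 14913 named genes. A probe was taken when its gene name, or the symbol in brackets in its description, was RPL or RPS with a number, or was an acidic stalk gene or RPSA. The kinases named RPS6K and the mitochondrial ribosomal proteins were left out. Of the 73 genes, 44 belong to the large subunit, the stalk genes RPLP0, RPLP1 and RPLP2 included, and 29 to the small subunit. No probe carried the symbol RPSA, and no RPS4Y gene was among them.

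Total RNA of testis tissue collected at slaughter from 15 cattle was measured on single-colour oligonucleotide arrays, 1 animal an array. Of these animals, 8 had received oral prednisolone, a synthetic glucocorticoid, at a dose of 30 mg per head each day over 35 days, and 7 were untreated controls. Animals are named by group and number, from prednisolone 25 to 32 and control 17 to 24 without a control 19; their age and breed are not given in the sources used here, and the series title calls the donors cows although the tissue is testis.

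Each ribosome carries a single copy of most of these proteins, so cells make them in step with each other and with ribosomal RNA. Their messenger RNAs are abundant, begin with a terminal oligopyrimidine tract and are taken up or released from translation together under control of the mTOR kinase. Germ cells of the mammalian testis carry special copies of some of them, such as RPL10L, a retrogene of X-linked RPL10 that is active in mouse spermatocytes while the sex chromosomes are silent.

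A level is given here as the log2 distance of a probe's processed signal from the 75th percentile of its array, and a difference is prednisolone minus control on that scale. Levels of different probes are not comparable. The labelled tissue carried its markers in every animal. Over the 9 measured spermatid genes of 12 listed, the log2 of the summed level lay between 9.04 and 9.76 in prednisolone animals and between 8.79 and 9.51 in controls. The sum over the 9 Sertoli cell genes lay between 4.44 and 5.84 in prednisolone animals and between 4.80 and 5.52 in controls, and that over the 7 Leydig cell genes between 7.05 and 8.29 in prednisolone animals and between 6.87 and 7.35 in controls.

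Both groups held 1 animal whose ribosomal protein values stood apart from the others, prednisolone 30 and control 17, so results are given with and without them. The array of prednisolone 30 was dim: its 75th percentile was 49.8, against 1220 to 2780 on the other 14 arrays, and 36.4% of its probes were well above background, against 82.2% to 89.9%. The median SD between the spots of a ribosomal protein probe was 0.48 there and 0.02 to 0.24 on the other arrays. Its values in the scanner file and in the authors' deposited table are also different measurements, with a correlation of 0.04 across 12337 gene-centred values, against 0.93 to 0.98 for the other animals. It was not settled which one is this animal's. The array of control 17 had a 75th percentile of 2260 and 87.7% of probes well above background, both inside the range of the other arrays.

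All 73 genes passed the filter on dim probes and were tested. Of these, 60 were well above background on all 15 arrays, 12 more on 14 arrays, and RPS27A on 12. None was saturated. RPL15 had 2 probes, with differences of -0.37 and -0.07. RPS15A had 3, of which the brightest, read here, differed by -0.21, while the other two were described for other genes and differed by 0.05 and 0.35. The other 71 genes had 1 probe each.

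Between prednisolone and control testis, no ribosomal protein gene passed the threshold. With limma, 0 of the 73 genes had an adjusted p under 0.05, as had 0% of the 13296 genes tested, and the smallest adjusted p among the 73 was 0.883. At an unadjusted p under 0.05 there was 1 gene, RPLP1, or 1.37%, against 2.43% of all genes. In no gene were the groups without overlap, as was the case for 0.0451% of all genes, and without prednisolone 30 and control 17 there was again no such gene (0.120% of all genes). Differences ran from -0.58 for RPL36A to 0.28 for RPS27A. For 68 of the 73 genes, or 93.2%, the 95% interval of the difference lay within 1 log2 unit either way, against 76.0% of all genes. It lay within 0.5 for 26, or 35.6%, against 22.1% of all genes. In whole tissue, fewer cells of a type and less RNA per cell cannot be told apart.

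Over all 15 animals, values were lower in prednisolone testis for 53 of the 73 genes, or 72.6%, against 48.0% of all genes tested. The median difference was -0.12 for the ribosomal protein genes, against 0.02 for all genes. Lower values were found for 31 of 44 large-subunit genes, with a median of -0.13, and for 22 of 29 small-subunit genes, with a median of -0.10. With quantile normalization 61 of 73 were lower, against 58.9% of all genes, and with normexp background correction 58, against 35.9%. Within slide 1 (2 prednisolone and 2 control animals) there were 58 with lower values, against 46.6% of all genes. There were 53 within slide 2 (2 and 1), against 51.5%, and 62 within scan day 1 (6 and 3), against 46.7%. Each of these batches held prednisolone 30, control 17 or both. This lean to lower values depended on prednisolone 30 and control 17. Without both animals, 25 of 73 genes, or 34.2%, had lower values, against 48.3% of all genes, and the median was 0.04, against 0.01. The sign of the difference changed for 34 of the 73 genes. A share over all genes is not given, so this count does not show whether such changes were more frequent among them. Without prednisolone 30 alone, 41 genes had lower values (47.4% of all genes) and the median was -0.02. Without control 17 alone, 46 had lower values (49.6% of all genes) and the median was -0.05. In the authors' deposited table, 57 genes had lower values (51.1% of all genes) with a median of -0.07, and without control 17 there were 21 (49.4% of all genes) with a median of 0.05.

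**Figure D1:**
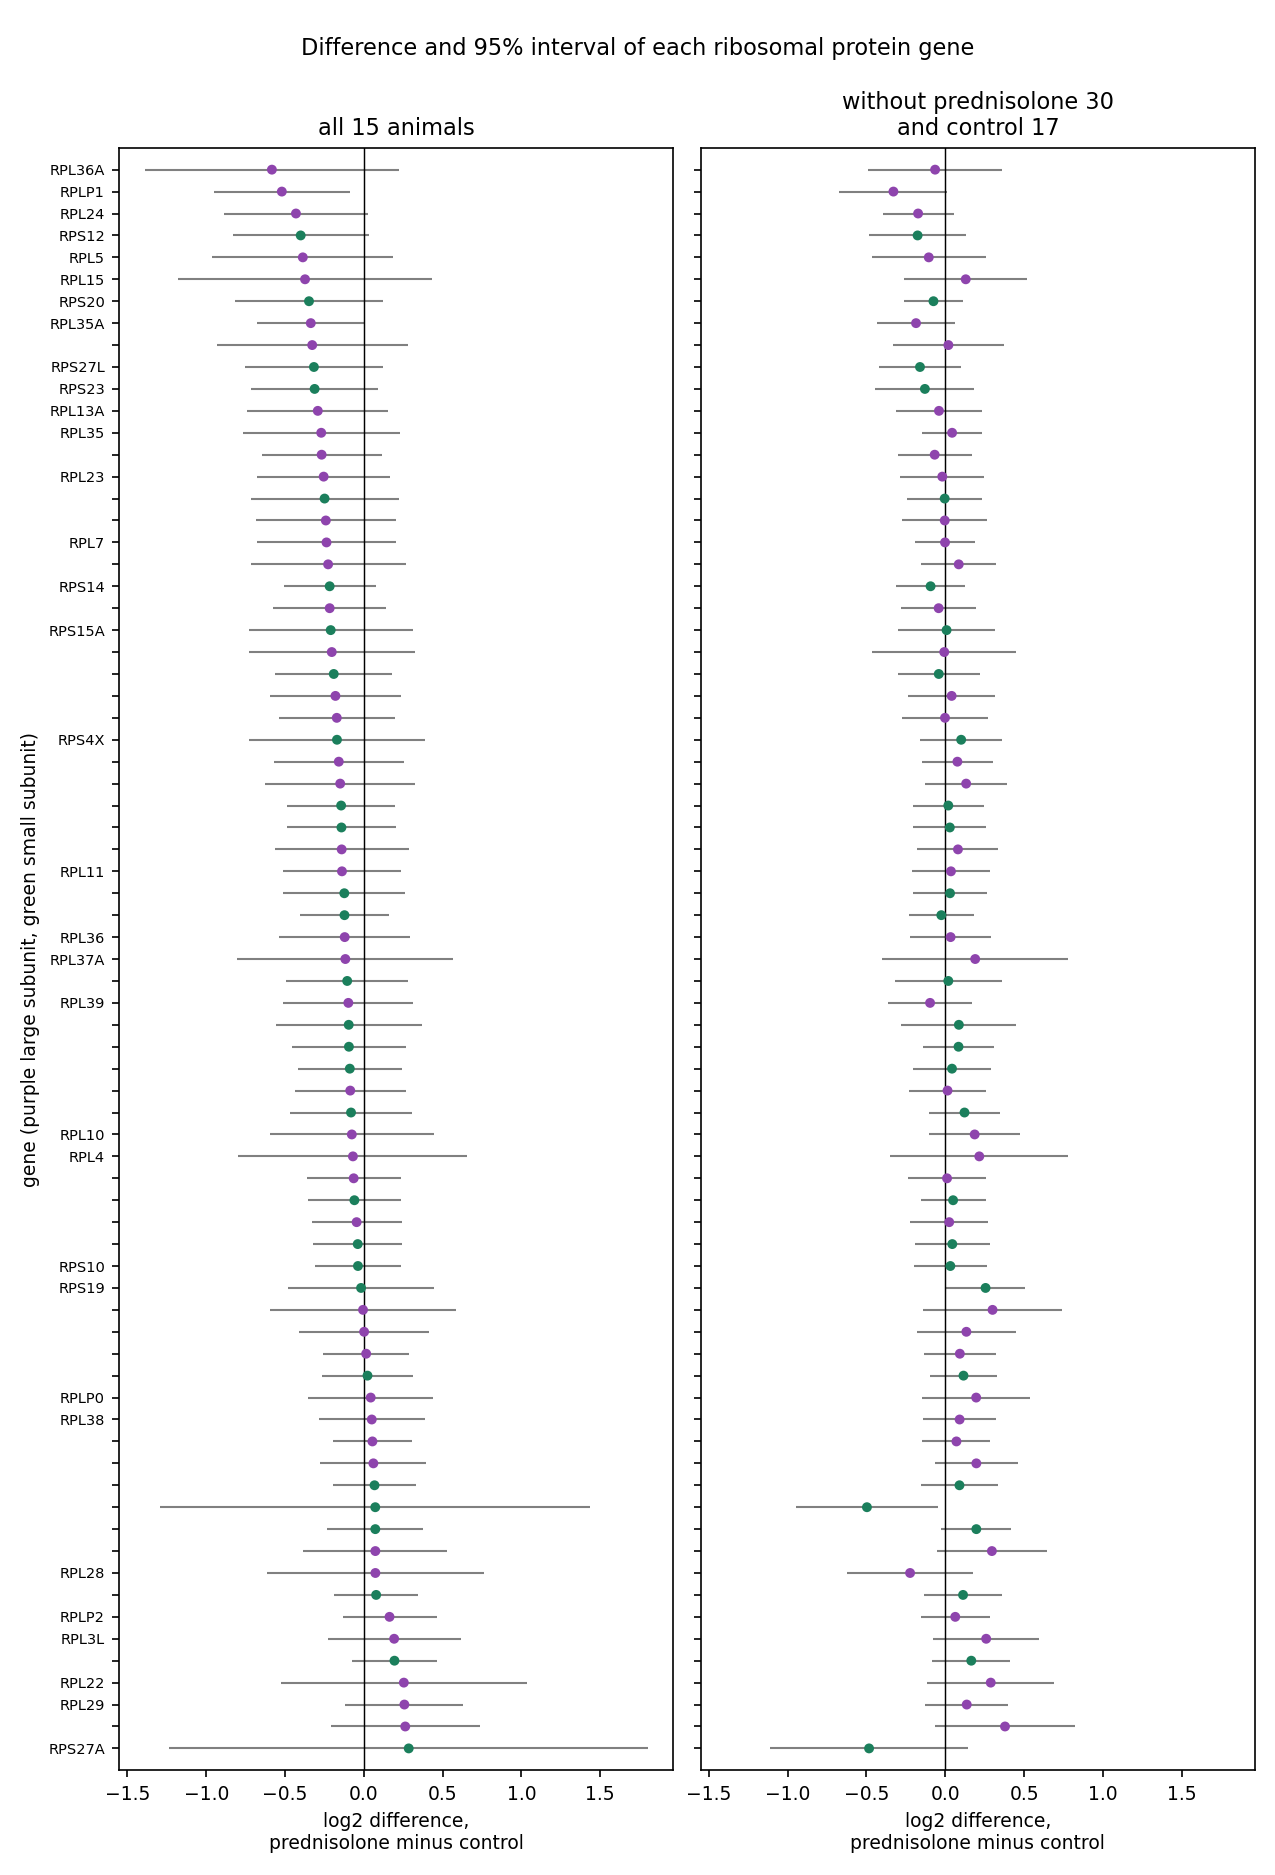
Difference, prednisolone minus control in log2 units, of each of the 73 ribosomal protein genes with its 95% interval from limma, over all 15 animals (left) and without prednisolone 30 and control 17 (right). Purple points are large-subunit and green points small-subunit genes, ordered by the difference on the left, and genes described in the text are labelled. On the left 53 points lie below 0, and on the right 25.

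Leaving out both animals narrowed the intervals. For 59 of 73 genes, or 80.8%, the 95% interval then lay within 0.5 log2 units either way, as for 58.9% of all genes. Of the 73, 0 genes passed, with a smallest adjusted p of 0.931 from limma. An unadjusted p under 0.05 was reached by 2 genes (2.74%, against 4.96% of all genes). One of them was RPS19, the small-subunit protein most often mutated in Diamond-Blackfan anaemia. It differed by 0.26 ± 0.12 (SE) there, and had differed by -0.02 over all 15 animals.

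Among the 13 animals other than prednisolone 30 and control 17, the median spread of ribosomal protein levels was below that of all genes. The same held for related lists, but not for the members that were not well above background on every array. The median SD of a ribosomal protein gene over these 13 animals was 0.19, against 0.28 for all genes tested, and it was under 0.2 for 40 of the 73. The smallest SDs were those of RPS20, RPL7 and RPL35, each 0.09, and the largest that of RPS27A, 0.63. RPS20 ran from 5.33 to 5.65 in these animals. Within groups, the median SD was 0.17 in prednisolone animals and 0.19 in controls without the 2 animals, and 0.38 and 0.29 with them. Without the 2 animals it was 0.20 in prednisolone animals and 0.18 in controls for initiation factors, 0.21 and 0.18 for ribosome biogenesis genes, 0.21 and 0.22 for mitochondrial ribosomal proteins, and 0.24 and 0.23 for elongation factors and other genes with terminal oligopyrimidine tracts, against 0.26 and 0.28 for all genes. Without the 2 animals, the median SD of the 60 members well above background on all arrays was 0.16 with prednisolone and 0.19 in controls. That of the other 13 members was 0.28 and 0.37, above that of all genes. The deviation of each animal is given from the mean of the same 13 animals. Its median over the 73 genes lay between -0.09 and 0.10 in each of the 13, and these ranges of the groups overlapped.

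**Figure D2:**
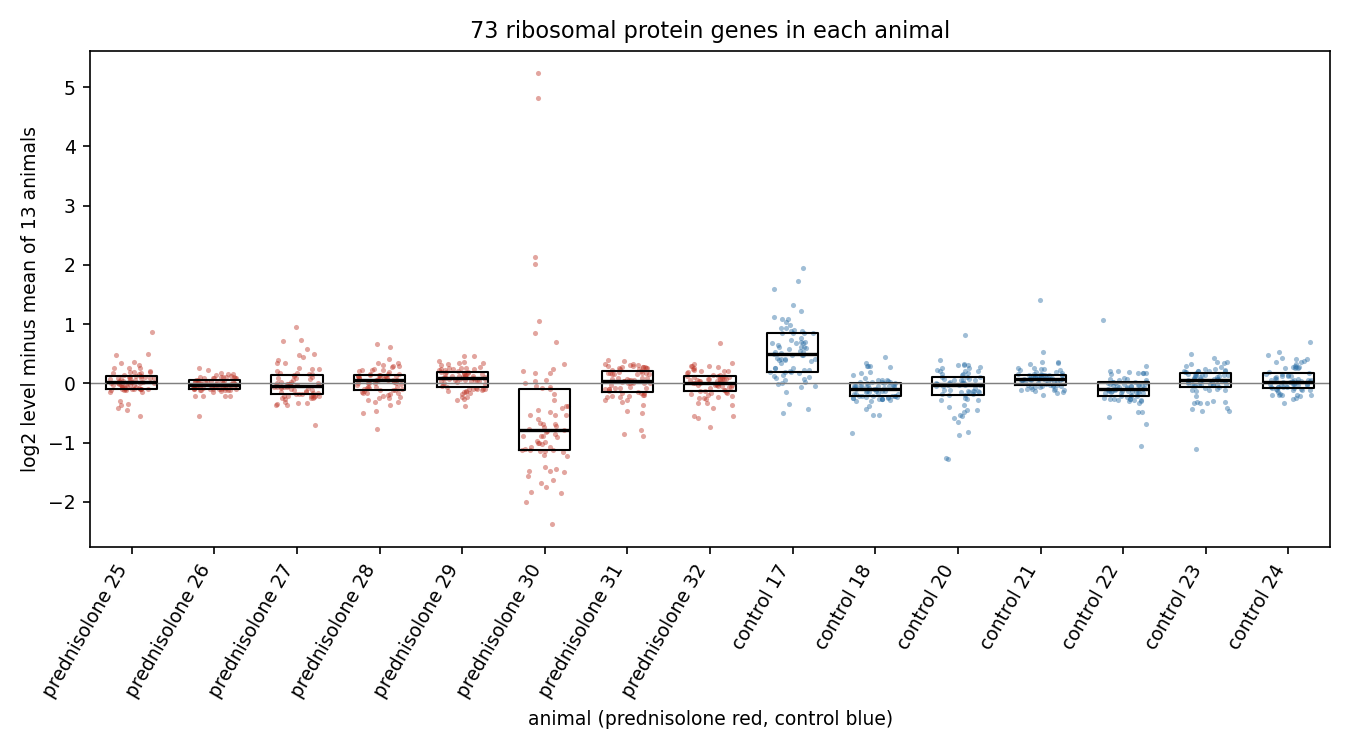
Log2 level of each of the 73 ribosomal protein genes minus its mean over the 13 animals other than prednisolone 30 and control 17, by animal (prednisolone red, control blue). Points are genes, and boxes give the quartiles and the median. The median is -0.78 in prednisolone 30, 0.49 in control 17 and between -0.09 and 0.10 in the others.

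Control 17 had higher levels of most ribosomal protein genes than any other animal. It was above the mean of the 13 animals for 66 of the 73 genes, against 5584 of all 13296 genes tested. Its median deviation was 0.49, where the median over all genes was -0.12. Control 17 was the highest of the 15 animals for 43 genes, or 58.9%, against 13.4% of all genes, and the lowest for 0, against 16.2%. Large-subunit genes deviated by a median of 0.61 and small-subunit genes by 0.25. In the deposited table, 69 genes were above and the median was 0.91. The animals that shared slide 1 with it had medians near 0, at 0.01 in prednisolone 25, -0.02 in prednisolone 26 and -0.09 in control 18.

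The shift of control 17 was uneven across genes. RPL36A deviated by 1.95, RPL22 by 1.73 and RPL10 by 1.59. RPL15 deviated by 1.32 and RPL13A by 1.22. RPL13A is known also for holding back translation of inflammatory messages in human macrophages. At the other end, 7 genes were below the mean of the 13 animals. Among them were RPL3L (-0.49), RPL38 (-0.44), RPS27A (-0.34), RPLP2 (-0.15), RPL29 (-0.05) and RPL36 (-0.01).

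Markers of other cell types moved with control 17, and their part in its ribosomal protein values was not tested. Its levels were above the mean of the 13 animals for 7 of 7 matrix genes, with a median deviation of 2.28, for 6 of 6 smooth muscle genes (1.66), 5 of 6 endothelial genes (1.12) and 4 of 6 macrophage genes (1.05). They were below it for 9 of 9 measured spermatid genes (-0.79), and above it for 1 of 6 meiotic genes (-0.60) and 1 of 6 spermatogonial genes (-0.36). Sertoli and Leydig cell genes had medians of 0.04 and -0.07. The log2 of the summed matrix level was 4.62 in control 17, and the range was 1.73 to 2.81 in prednisolone animals and 2.21 to 4.62 in controls. For smooth muscle it was 5.83 in control 17, in ranges of 3.73 to 4.90 in prednisolone animals and 3.93 to 5.83 in controls. The endothelial sum ranged from 0.65 to 2.83 in prednisolone animals and from 0.46 to 1.12 in controls, with control 17 at 1.12. The macrophage sum ranged from 3.60 to 4.44 in prednisolone animals and from 4.04 to 4.46 in controls, with control 17 at 4.04. The meiotic sum ranged from 1.55 to 2.42 in prednisolone animals and from 1.48 to 2.77 in controls, with control 17 at 1.48. The spermatogonial sum ranged from 1.97 to 3.44 in prednisolone animals and from 2.57 to 3.41 in controls, with control 17 at 2.57. Control 17 thus had the highest control sum for matrix, smooth muscle and endothelial genes. It also had the highest for Sertoli cell genes (5.52), the 2 measured blood genes (1.96) and the epididymis gene GPX5 (-6.53). Its sum was the lowest among controls for spermatid, meiotic, spermatogonial and macrophage genes, and for the 4 measured adipocyte genes (1.12). PRM2, CAPZA3, TSSK2, SYCP2, TEX101, NANOS3 and STRA8 were listed among the germ cell markers and not tested.

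**Figure D3:**
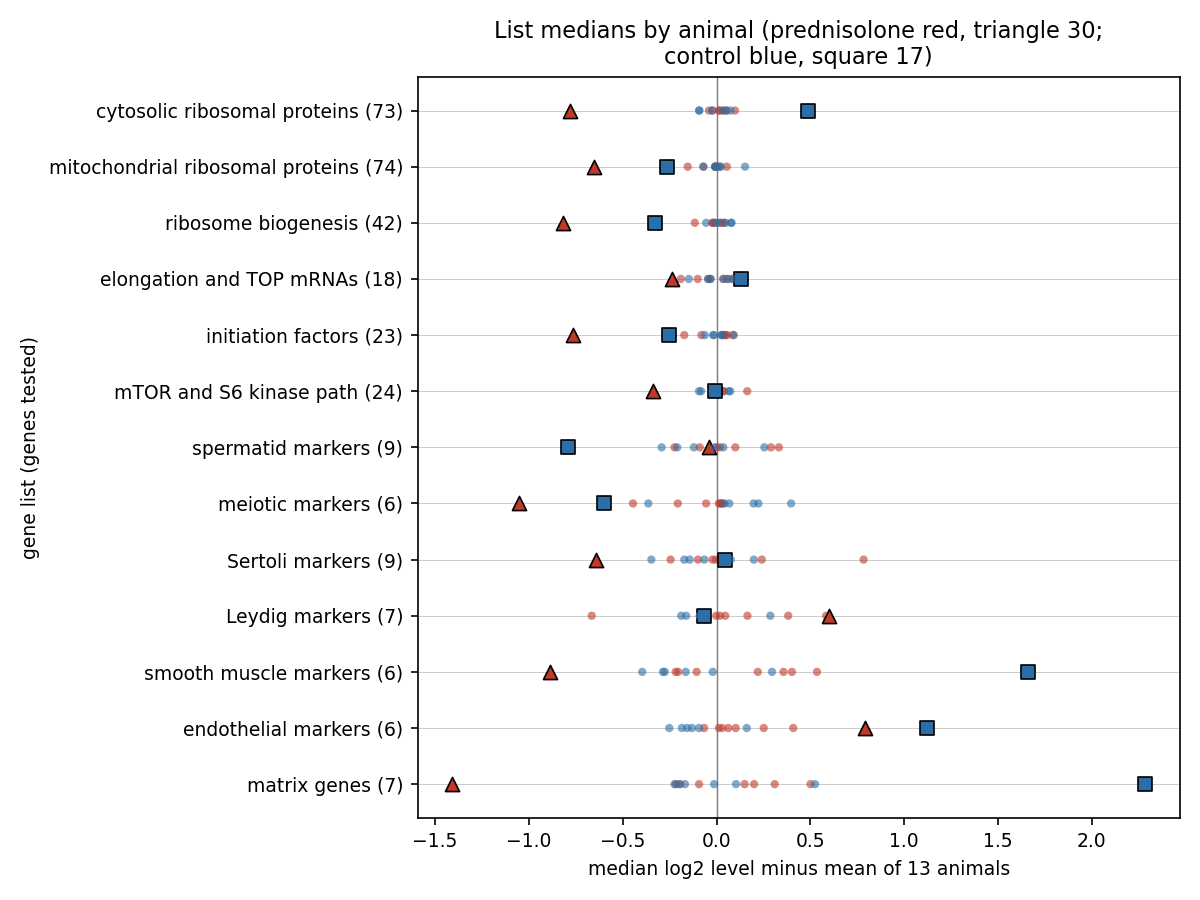
Median over each gene list of the log2 level minus its mean over the 13 animals other than prednisolone 30 and control 17, by animal (prednisolone red with animal 30 as a triangle, control blue with animal 17 as a square). For the 73 cytosolic ribosomal protein genes the triangle lies at -0.78 and the square at 0.49, while for the 74 mitochondrial ribosomal protein genes they lie at -0.65 and -0.26.

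Prednisolone 30 had lower levels of most ribosomal protein genes in its scanner file and not in the deposited table. In the scanner file its median deviation was -0.78, where the median over all genes was -0.13. Of the 73 genes, 58 were below the mean of the 13 animals and 15 above, where 6247 of all 13296 genes tested were above. Prednisolone 30 was the lowest of the 15 animals for 48 genes, or 65.8%, against 37.4% of all genes, and the highest for 8, or 11.0%, against 35.3%. In the deposited table its median deviation was -0.01, with 33 of 72 genes above. Over the 60 genes well above background on all arrays, the scanner median was -0.79.

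The highest deviations of prednisolone 30 belonged to probes that were dim on the other arrays. RPS27A was at -1.24 in prednisolone 30 and between -7.37 and -5.07 in the 13 animals. RPL28 and RPL22 deviated by 2.13 and 2.01. Its lowest deviations were those of RPL15 (-2.38), RPL36A (-1.998), RPS4X (-1.86), RPL4 (-1.83) and RPL5 (-1.75). For these 5 genes the deposited table gave deviations of -0.32, 0.46, -0.30, -0.16 and -0.02. The array's low brightness moves with these values. Marker lists in its scanner file had median deviations of -1.41 for matrix genes (2 of 7 above the mean of the 13 animals), -1.05 for meiotic genes (0 of 6), -0.89 for smooth muscle (0 of 6), -0.87 for spermatogonia (2 of 6) and -0.64 for Sertoli cells (1 of 9). The medians were 1.53 for the 2 measured blood genes (2 of 2 above), 1.07 for lymphocytes (4 of 5), 0.79 for endothelium (4 of 6), 0.60 for Leydig cells (4 of 7), -0.04 for spermatids (4 of 9), -0.21 for macrophages (3 of 6) and -0.07 for adipocytes (2 of 4). The 1 measured epididymis gene of 8 listed, GPX5, deviated by 4.61. The summed log2 level of the lymphocyte list ran from -0.17 to 0.87 in prednisolone testis, against -0.59 to 0.34 in control testis, that of the blood list from 0.88 to 3.46, against 0.79 to 1.96, and that of GPX5 from -7.40 to -2.43, against -7.67 to -6.53, with prednisolone 30 highest in each. The Leydig median of prednisolone 30 was close to the 0.58 of another prednisolone animal. The part of brightness or of other cell types in its ribosomal protein values was not tested.

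Among the stalk genes, RPLP1 had the smallest unadjusted p of the ribosomal protein genes. RPLP1 and RPLP2 form the acidic stalk on which elongation factors dock, and RPLP0 anchors them to the large subunit. RPLP1 had a lowest, median and highest level of 2.45, 3.30 and 3.70 in prednisolone testis, against 3.40, 3.73 and 4.23 in control testis. All 8 prednisolone animals lay below the control mean, with prednisolone 30 lowest and control 17 highest, and the groups overlapped. The mean was 3.20 ± 0.44 (SD, n = 8) with prednisolone and 3.72 ± 0.30 (SD, n = 7) in controls, a difference of -0.52 ± 0.20 (SE) with an unadjusted p of 0.021 and an adjusted p of 0.883 from limma. Without both animals it was -0.33, and in the deposited table -0.39. RPLP2 lay at 6.15, 6.48 and 7.07 with prednisolone, against 6.18, 6.32 and 6.51 in controls, and differed by 0.16. Its highest value was that of prednisolone 30, and without both animals it differed by 0.06. RPLP0 lay at 6.18, 6.66 and 6.94 with prednisolone, against 5.94, 6.66 and 7.12 in controls, and differed by 0.04. For RPLP0 the prednisolone range lay inside the control range, and for RPLP2 the control range lay inside the prednisolone range, whose top value was that of prednisolone 30.

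The other large-subunit genes with the smallest unadjusted p on the lower side were RPL35A and RPL24, with an adjusted p of 0.883 in limma, far from the threshold. RPL35A, a gene mutated in some patients with Diamond-Blackfan anaemia, lay at 4.78, 5.61 and 5.75 in prednisolone testis, against 5.56, 5.79 and 6.12 in control testis. All 8 prednisolone animals were below the control mean and the ranges overlapped. Its difference was -0.34 ± 0.16 (SE), and -0.19 without both animals. RPL24, which bridges the 2 subunits, lay at 3.59, 4.97 and 5.11 with prednisolone, against 4.89, 5.17 and 5.74 in controls. Prednisolone 30 was the lowest animal and control 17 the highest, and all 8 prednisolone animals were below the control mean. Its difference was -0.43 ± 0.22 (SE), and -0.17 without both animals.

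On the higher side, RPL29 and RPL22 were among the large-subunit genes with the smallest p. RPL29, known also as a protein that binds heparin at the cell surface, lay at 5.52, 5.80 and 6.81 in prednisolone testis, against 5.51, 5.71 and 5.89 in control testis. Prednisolone 30 was highest, and the difference of 0.26 ± 0.18 (SE) was 0.14 without both animals. RPL22, which also binds a small RNA of Epstein-Barr virus in human cells, lay at -5.01, -4.77 and -2.85 with prednisolone, against -5.73, -4.97 and -3.13 in controls. Prednisolone 30 and control 17 were its highest animals, and its difference was 0.25 ± 0.37 (SE). In both of these genes the groups overlapped and the adjusted p from limma was at least 0.883.

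The small-subunit genes with the smallest unadjusted p on the lower side were RPS12, RPS23 and RPS14, also with an adjusted p of 0.883 in limma. RPS12 lay at 4.71, 5.42 and 5.75 in prednisolone testis, against 5.44, 5.58 and 6.55 in control testis. Control 17 was highest and prednisolone 30 lowest, 7 of 8 prednisolone animals were below the control mean, and the groups overlapped. Its difference was -0.40 ± 0.20 (SE), and -0.18 without both animals. RPS23, which sits by the decoding site, lay at 4.13, 4.55 and 4.87 with prednisolone, against 4.14, 4.87 and 5.61 in controls. Its difference was -0.31 ± 0.19 (SE), and -0.13 without both animals. RPS14, whose loss of 1 copy underlies the anaemia of the 5q- syndrome, lay at 5.60, 6.02 and 6.21 with prednisolone, against 5.84, 6.19 and 6.61 in controls. It differed by -0.22 ± 0.14 (SE), and by -0.09 without both animals. RPS10, which lies near the entry of the messenger RNA, differed by -0.04. Over the alternatives tried, RPLP1, RPL35A, RPL24, RPS12, RPS23 and RPS14 had lower values in prednisolone testis in all 32. RPL5, RPS27L and RPL36A did so as well, and RPL29 had higher values in all 32. On the higher side, RPLP2, RPL3L and RPL22 changed sign in 1, 2 and 4 alternatives. Genes of smallest p were picked from these same data and the alternatives refit the same animals, so a constant sign is no separate support. A share over all genes is not given.

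**Figure D4:**
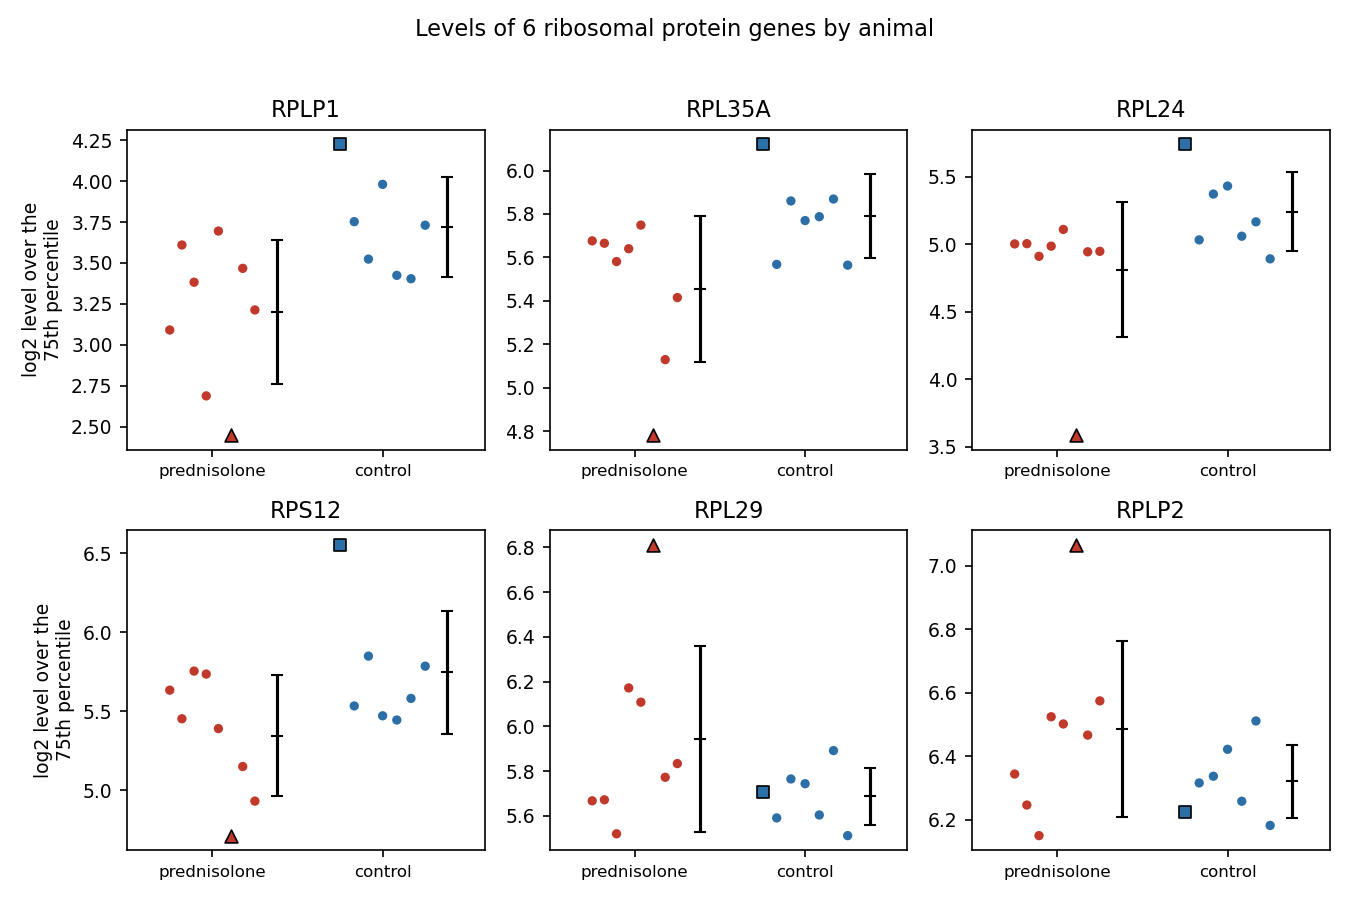
Log2 level over the array's 75th percentile of 6 ribosomal protein genes in each animal, prednisolone left and control right, with the mean and SD of each group beside the points. The triangle is prednisolone 30 and the square control 17, which hold the lowest and the highest value of RPLP1, RPL35A, RPL24 and RPS12.

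RPL5 and RPL11 bind the ubiquitin ligase MDM2 with 5S ribosomal RNA when ribosome assembly fails, and so stabilise p53. RPL23 can bind MDM2 as well. RPL5 lay at 2.68, 4.52 and 4.60 in prednisolone testis, against 3.96, 4.59 and 4.98 in control testis, and differed by -0.39 ± 0.27 (SE). The low value was that of prednisolone 30, and the difference was -0.11 without both animals. RPL11 lay at 4.42, 5.33 and 5.73 with prednisolone, against 5.27, 5.37 and 5.74 in controls, and differed by -0.14 ± 0.18 (SE), or by 0.04 without both animals. RPL23 lay at 3.50, 4.34 and 4.74 with prednisolone, against 4.10, 4.46 and 5.29 in controls, and differed by -0.26 ± 0.20 (SE), or by -0.02 without both animals. Each of the 3 genes had its lowest value in prednisolone 30 and its highest in control 17. RPS27A, made as a fusion with ubiquitin, lay at -7.37, -6.70 and -1.24 with prednisolone, against -6.94, -6.27 and -5.07 in controls. Its difference of 0.28 ± 0.72 (SE) was -0.48 without both animals.

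The X-linked members were read beside RPL10L, which was named through its accession and lies outside the rule. RPL10, a late-joining protein of the large subunit, lay at 3.41, 3.61 and 4.21 in prednisolone testis, against 3.36, 3.52 and 5.22 in control testis, with control 17 above all others. Its difference was -0.08 ± 0.25 (SE), and 0.19 without both animals. RPL36A lay at -1.98, -0.06 and 0.49 with prednisolone, against -0.45, 0.08 and 1.96 in controls, where prednisolone 30 and control 17 were the outermost animals. Its difference of -0.58 ± 0.38 (SE) was the lowest of the 73 and was -0.06 without both animals. RPL39, of the exit tunnel, lay at -2.51, -2.17 and -1.32 with prednisolone, against -2.29, -2.09 and -1.32 in controls, with prednisolone 30 and control 17 both at -1.32. It differed by -0.10 ± 0.20 (SE), with and without both animals at the same rounded value. RPS4X lay at 2.14, 4.05 and 4.30 with prednisolone, against 3.72, 3.96 and 4.18 in controls, and differed by -0.17 ± 0.26 (SE), or by 0.10 without both animals. In control 17, RPL10, RPL36A and RPL39 deviated by 1.59, 1.95 and 0.85 and RPS4X by 0.18. RPL10L deviated by -0.80 there, at 3.64 the lowest of all 15 animals, while prednisolone 30 was at 3.71 and the 13 other animals between 4.17 and 4.81. RPL10L differed by 0.02 ± 0.18 (SE) between the groups.

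**Figure D5:**
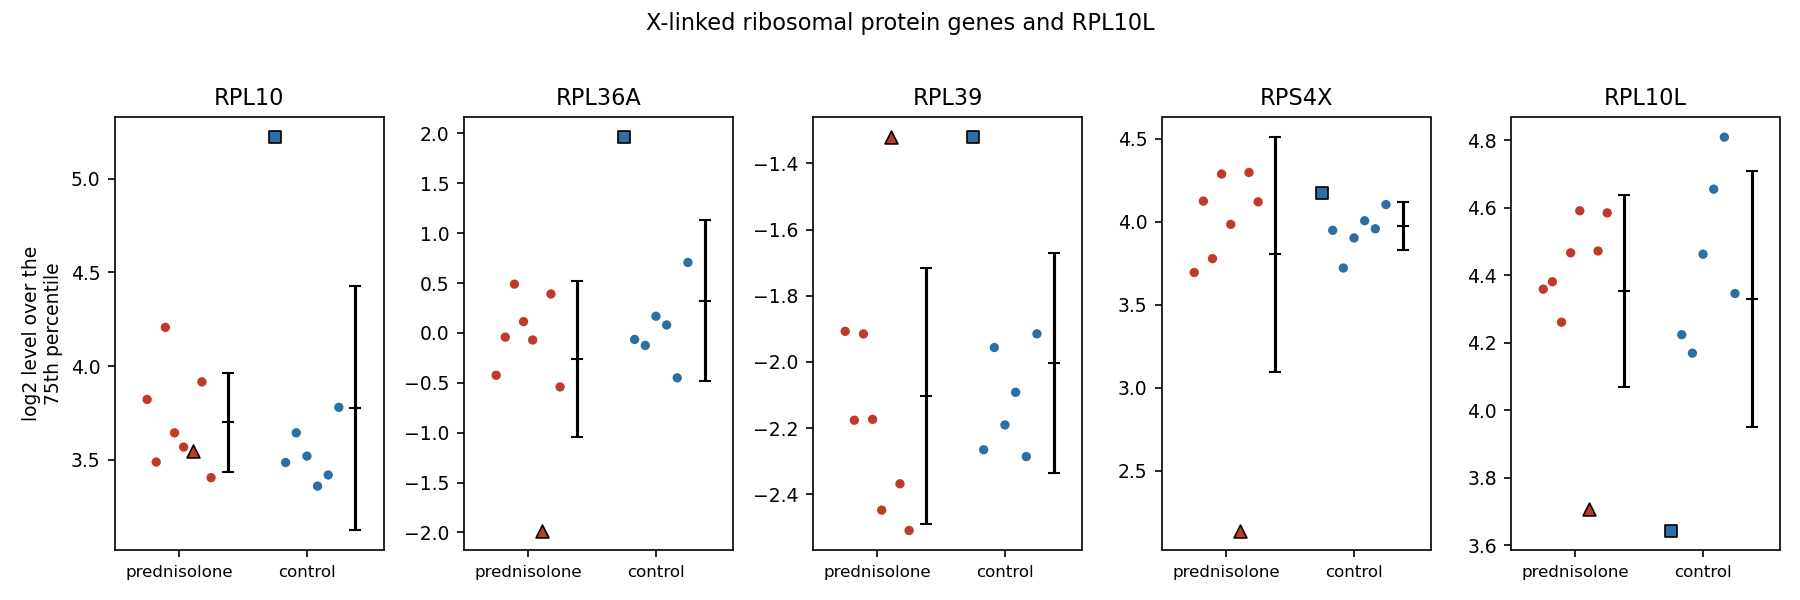
Log2 level over the array's 75th percentile of RPL10, RPL36A, RPL39, RPS4X and RPL10L in each animal, prednisolone left and control right, with the mean and SD of each group beside the points. Control 17 (square) is at 5.22 for RPL10 and at 3.64 for RPL10L, and prednisolone 30 is the triangle.

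Of the paralogs that the rule took in, RPL3L, the muscle form of RPL3, lay at -3.74, -2.88 and -2.23 in prednisolone testis, against -3.41, -3.08 and -2.86 in control testis, and differed by 0.19 ± 0.20 (SE). It was 0.26 without both animals. RPS27L, a p53 target in human cells, lay at 0.03, 1.31 and 1.89 with prednisolone, against 1.39, 1.50 and 1.72 in controls. Its controls were among the least spread, with an SD of 0.11, and the low value was that of prednisolone 30. It differed by -0.32 ± 0.21 (SE), and by -0.16 without both animals. RPL37A, with one of the largest SDs among controls (0.72), differed by -0.12, and by 0.19 without both animals. Processed pseudogenes of ribosomal protein genes are common in mammals, and hybridisation of their transcripts to these probes was not tested.

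The rest of the translation apparatus was read in lists. Over all genes tested, 48.0% had lower values in prednisolone testis, and 48.3% without both animals. Mitochondrial ribosomal proteins, which serve the separate ribosome of the mitochondrion, had lower values in prednisolone testis for 51 of 74 genes (median -0.10), and for 49 of 74 without both animals (median -0.03). Ribosome biogenesis genes had lower values for 28 of 42 (median -0.08), and for 30 of 42 without both animals (median -0.06). Initiation factors had lower values for 17 of 23 (median -0.07), and for 12 without both animals (median 0.00). Elongation factors and other genes with terminal oligopyrimidine tracts had lower values for 10 of 18 (median -0.05), and for 11 without both (median -0.03). The mTOR and S6 kinase genes had lower values for 14 of 24 (median -0.04), and for 8 without both (median 0.02). In none of these lists did a gene pass in limma. At an unadjusted p under 0.05 stood 1 gene each of the mitochondrial ribosome (MRPL37, 0.41 ± 0.17 SE) and of biogenesis (DKC1, the pseudouridine synthase dyskerin, 0.29 ± 0.13 SE), and 0 of the other lists. Of all genes, 2.43% reached an unadjusted p under 0.05.

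In the scanner file of control 17, these lists had medians below the 0.49 of the cytosolic ribosomal protein genes. Of all 13296 genes tested, 5584 were above the mean of the 13 animals there. Mitochondrial ribosomal proteins had a median deviation of -0.26, with 17 of 74 genes above the mean of the 13 animals. Biogenesis genes had -0.33, with 8 of 42 above, and initiation factors -0.25, with 8 of 23 above. Elongation and oligopyrimidine genes had 0.13, with 9 of 18 above, and mTOR and S6 kinase genes -0.01, with 12 of 24 above. In the deposited table, control 17 had a median of 0.40 for elongation and oligopyrimidine genes, with 16 of 18 above. Its median was 0.09 for initiation (13 of 23) and 0.05 for mTOR and S6 kinase genes (13 of 24). For mitochondrial ribosomal proteins it was -0.05 (30 of 74), and for biogenesis -0.20 (12 of 42). The cytosolic ribosomal protein genes had 0.91 there. In the scanner file of prednisolone 30 the medians were -0.65 for mitochondrial ribosomal proteins, -0.82 for biogenesis, -0.77 for initiation, -0.24 for elongation and -0.34 for mTOR and S6 kinase genes. In the scanner files of the 13 other animals, no list median among these lay further than 0.19 from 0. The differences between lists were not tested.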

How the data were processed

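Single-colour Agilent arrays of testis RNA from 15 cattle were used, 8 prednisolone and 7 control. Spot intensity in the deposited scanner files is background-subtracted and detrended, from Feature Extraction 9.5.1.1 per the file headers, with no normalization between arrays. A second source of intensity, the authors' deposited value table, had been brought to a common level by a step the sources used here do not give. The submitters' processing notes name R 2.11.1.

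From the files, control spots were left out, outlier spots masked, the spots of a probe averaged, and log2 processed signal set relative to the 75th percentile of its array. A probe was tested when well above background on at least 7 arrays, counted over both groups together, which left 18492 probes and 13296 genes. A gene was read through its brightest probe. Names came from the scanner files and, for other genes, through accessions and gene numbers in a RefSeq gene table for cattle (ARS-UCD2.0). Of the 76 ribosomal protein probes, 47 were found by gene name and 29 by description, and for 73 the table gave the same symbol. Among the exceptions, RPL41 had no match and RPL36 a placeholder. Coordinates are not given, since the sources used here do not name the build of the array design, and no sequences were used.

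The 2 groups were fitted in R 4.3.3 with limma 3.58.1 (lmFit, eBayes, two-sided), with Benjamini-Hochberg adjustment over all tested probes at 0.05. The number of animals limits the precision. The labels name single animals and no pairing. Slide and scan day come from the file headers. The members and lists were chosen with earlier results of these data known. Named genes were, per direction, the 6 of smallest unadjusted p, together with the stalk genes, paralogs whose symbol ends in L, RPL5, RPL11, RPL23, RPS27A, RPS4X, RPL10, RPL39, and the 3 with the largest and smallest SD over controls. Other genes given by name, among them RPS19, RPL10L and those listed by deviation in a single animal, were picked after their values were seen. Some genes that these rules name are not reported here. Alternatives covered scaling, background correction, the deposited table, filters, array weights, slide, scan day and leaving out animals, of which the deposited table without control 17 or prednisolone 30 was added after seeing the data.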

Additional observations from a re-analysis of the deposited data

Results flagged for a closer look

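Some animals lay far from the rest of their group by Dixon's ratio at its 95% limit. This held for 14 of 50 groups of values (the named genes and the median deviation, in each group), where chance gives about 2.5. The animal was prednisolone 30 in 10 of them and control 17 in 4. Over all 73 genes it held for 52 of 146 groups, where chance gives 7.3, and prednisolone 30 was the low animal in 34, the high one in 5, and control 17 the high one in 11. Control 23 and prednisolone 31 were high in 1 each. The genes share the same 15 arrays, so these groups are not independent of each other. Of all genes tested, prednisolone 30 was the lowest animal for 37.4% and the highest for 35.3%, and control 17 the highest for 13.4%. The share by Dixon's ratio over all genes is not given, so these counts are not read as a result about ribosomal protein genes.

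The median deviation over the ribosomal protein genes was -0.78 in prednisolone 30, below the other prednisolone animals, and 0.49 in control 17, above the other controls. Prednisolone 30 was far below its group for RPL24 (3.59), RPS14 (5.60), RPL5 (2.68), RPS4X (2.14), RPS27L (0.0328) and RPL36A (-1.98). It was far above its group for RPLP2 (7.07), RPL22 (-2.85) and RPS27A (-1.24). Control 17 was far above its group for RPS12 (6.55), RPL10 (5.22) and RPL39 (-1.32).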

How the results depend on the processing

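No gene, of the 73 or of all tested, passed the threshold under the alternatives run, of which the fits within slides hold too few animals to bear on it. The median difference of -0.12 was below 0 except with array weights (0.0209), without prednisolone 30 and control 17 (0.0360) and in the deposited table without control 17 (0.0522), where 31, 25 and 21 of 73 genes had lower values, against 53. The shares of all genes with lower values there were 49.6%, 48.3% and 49.4%, against 48.0%. The cause of the array weights' value was not tested. Leaving out 1 animal in turn gave 41 to 57 genes with lower values and medians of -0.15 to -0.02. The share of all genes with lower values then ran from 47.2% to 49.6%. With slide as a block the median was -0.25, with 59 genes lower (48.2% of all genes). With scan day as a block it was -0.22, with 62 lower (46.7% of all genes). It was -0.22 within slide 1, -0.31 within slide 2 and -0.22 within scan day 1. Slide 1 holds 2 prednisolone and 2 control animals, and slide 2 holds prednisolone 29 and 30 and a single control, so its value has no spread among controls. Other batches hold 1 group, so the blocked fits took the difference only from slides 1 and 2, or from scan day 1. The scan day block and the fit within scan day 1 therefore gave the same median. Each of these batches held prednisolone 30, control 17 or both. The share of all genes with lower values, 48.0%, was 55.8% with median scaling, 58.9% with quantile scaling and 35.9% with normexp background correction, where 59, 61 and 58 of the 73 were lower. No paired analysis was possible because the groups share no animal numbers. Dim signal limits RPS27A and RPL22 in particular.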

Other observations

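Over the 14 arrays without prednisolone 30, the genes outside the ribosome whose levels ran most like the mean centred profile of the 73 ribosomal protein genes were OSBPL3 (Pearson r = 0.96), MAP3K20 (0.95), GRAP (0.95), CKB (0.95) and STRA6 (0.94). These arrays share control 17, where OSBPL3 lay 3.53 above the mean of the 13 animals, MAP3K20 1.56, GRAP 2.05, CKB 2.50 and STRA6 2.24. Over the 13 animals without control 17, r was 0.77, 0.69, 0.65, 0.62 and 0.76. The genes were picked for the first set of values, so these are descriptions.

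Of 6 ribosomal protein genes named only through accession or gene number (RPSA, RPS15, RPL13, RPS26, RPL10L and RPL3), 5 had lower values in prednisolone testis, and 3 without prednisolone 30 and control 17. In limma 0 of them had an unadjusted p under 0.05. In control 17 their median deviation was 0.29, with 5 of 6 above the mean of the 13 animals, and RPL10L was the gene below it.

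Of 7 measured genes related to ribosomal proteins but outside the rule, among them RPL22L1, 4 had lower values in prednisolone testis, and 3 without prednisolone 30 and control 17.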
